A study of Mus musculus with 4 samples.

Results

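Glycolysis breaks glucose down to pyruvate in the cytosol. The transcripts described here belong to 34 mouse genes of that pathway and its immediate control: glucose transporters, hexokinases, the enzymes from glucose phosphate isomerase to pyruvate kinase, lactate dehydrogenases, lactate transporters, the bifunctional PFKFB enzymes, pyruvate dehydrogenase kinases, Hif1a and Fbp1. The genes were listed by name, and every probe on the array whose RefSeq accession belongs to such a gene was taken. All 34 had a probe, 62 probes in all, out of 22911 genes and 56605 probes that are not controls.

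Gene expression was measured in CD8 T cells sorted by flow cytometry from spleen and lymph node of mice on the C57BL/6 background, genotype PD-1-/-, aged 1 to 3 months and given no treatment. The sort used CD44, a surface receptor that is abundant on antigen-experienced T cells, and CD62L, the selectin through which T cells enter lymph nodes. P1 was CD44low CD62Lhigh (the naive phenotype), P2 CD44high CD62Lhigh (central memory phenotype), P3 CD44high CD62Llow (effector memory phenotype) and P4 CD44low CD62Llow, the subset named in the study's title. Every subset came from mice that lack the inhibitory receptor PD-1, so no group shows the wild-type state, and how many mice were used, and whether they were pooled, is not stated in the labels. With 1 array per subset there is no replicate, no test was made, and subset and array cannot be told apart.

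Resting T cells take up little glucose and burn much of it in mitochondria. On activation they raise glucose transport and convert most pyruvate to lactate even with oxygen present, which regenerates the cofactor that glycolysis consumes. Hexokinase, phosphofructokinase and pyruvate kinase catalyse the steps that are irreversible in the cell, and PFKFB enzymes set the level of a sugar phosphate that activates phosphofructokinase. Pyruvate dehydrogenase kinases keep pyruvate out of the mitochondrial cycle, and the transcription factor HIF-1, of which Hif1a encodes the regulated subunit, is known to induce many of these genes.

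HIF-1 and MYC bind short DNA elements that share the letters CGTG, so the sequences around the starts of 4 members are shown first, from the RefSeq promoter table of GRCm38.p6 (250 bases before to 50 after the start). Hk2 and Slc16a3 are shown because both had their lowest level in P1 and their highest in P3. Pdk1 is shown because its lowest level was in P3. Ldha is shown as a member that stayed short of 2-fold in every pair. It was also lowest in P3, with a range of 0.35, and other members, such as Aldoa (0.10), were flatter. Capitals mark ACGTG or GCGTG, read on either strand; overlapping matches on the 2 strands run together.
Hk2, chr6:82774405-82774704, minus strand: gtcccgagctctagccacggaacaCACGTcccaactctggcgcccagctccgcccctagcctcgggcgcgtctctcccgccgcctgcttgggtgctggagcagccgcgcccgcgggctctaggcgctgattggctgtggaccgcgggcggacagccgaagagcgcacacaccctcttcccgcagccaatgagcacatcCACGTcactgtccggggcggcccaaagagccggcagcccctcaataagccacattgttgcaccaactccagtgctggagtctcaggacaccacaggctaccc
Slc16a3, chr11:120948817-120949116, plus strand: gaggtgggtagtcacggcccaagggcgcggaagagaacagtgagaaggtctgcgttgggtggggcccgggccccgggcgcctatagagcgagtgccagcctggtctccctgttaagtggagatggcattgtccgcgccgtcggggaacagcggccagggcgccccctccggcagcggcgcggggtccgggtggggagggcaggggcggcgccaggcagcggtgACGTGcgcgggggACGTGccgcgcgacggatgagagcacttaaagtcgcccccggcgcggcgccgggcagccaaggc
Pdk1, chr2:71872974-71873273, plus strand: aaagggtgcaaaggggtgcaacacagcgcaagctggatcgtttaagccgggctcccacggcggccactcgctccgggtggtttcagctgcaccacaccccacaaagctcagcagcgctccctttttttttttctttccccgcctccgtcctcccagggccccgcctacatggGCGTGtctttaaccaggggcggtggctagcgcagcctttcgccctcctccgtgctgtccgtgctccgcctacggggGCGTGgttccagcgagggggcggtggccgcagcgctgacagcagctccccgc
Ldha, chr7:46845554-46845853, plus strand: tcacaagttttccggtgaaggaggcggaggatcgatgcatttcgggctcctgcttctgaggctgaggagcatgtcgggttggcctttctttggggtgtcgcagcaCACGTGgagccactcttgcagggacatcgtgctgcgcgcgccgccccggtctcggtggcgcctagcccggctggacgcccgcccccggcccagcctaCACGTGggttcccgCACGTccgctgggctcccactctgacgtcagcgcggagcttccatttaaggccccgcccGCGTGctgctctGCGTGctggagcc
The Hk2 window held 2 matches of ACGTG, first bases 226 and 52 bases before the start, and the Slc16a3 window held 2, at 27 and 14 bases before it. The Pdk1 window held 0 matches of ACGTG and 2 of GCGTG, at 78 and 2 bases before the start. The Ldha window held 5 matches of ACGTG and 2 of GCGTG. In Ldha the matches at 145 and 144 bases before the start are the same letters read on 2 strands, as are those at 48 and 47. The 4 genes were picked by their levels, and how matches relate to levels was not tested. Other members had the same orders of levels, and their matches varied. Pfkp, also lowest in P1 and highest in P3, had 0 matches of ACGTG and 4 of GCGTG. Slc16a1 and Pfkfb4, also lowest in P3, had 3 and 0 matches of ACGTG. Windows were found for 33 members, 52 windows in all, as some genes have several starts, and 38 of them (73.1%) held either element, against 43.8% of 32851 windows of the same length in the table. For ACGTG alone the shares were 44.2% and 19.6%, and for GCGTG alone 26 of 52 windows held it, against 32.4%. Windows of neighbouring starts overlap and share matches. The windows compared were not matched to those of members for base composition or expression, and the difference in shares was not tested. A match is a run of letters, not a site shown to be bound.

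Levels below are log2 values of the authors' background-subtracted spot signal, relative to the 75th percentile of the same array, for the brightest probe of each gene. Levels given 4 in a row are those of P1, P2, P3 and P4. A level is read across arrays only, since different probes bind with different strength. Of the 34 members, 32 were well above background on all 4 arrays, Slc2a6 on the P3 and P4 arrays only, and Fbp1, the gluconeogenic phosphatase that opposes phosphofructokinase, on none. Repeated spots of the same probe give a difference between arrays a 95% half-width of 0.18 for levels of 0 and above, 0.37 between -3 and 0, and 0.71 below -3. These widths cover spot noise within an array and nothing between mice or sorts.

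The P3 array stood apart in markers of other cells, and this bears on every comparison with it. All 9 CD8 T cell identity genes were well above background on every array, with a summed level of 1500, 1351, 1156 and 1309 times the 75th percentile in P1 to P4. Of 18 dendritic cell, macrophage and monocyte genes, 6, 13, 17 and 13 were well above background in P1 to P4, with summed levels of 6.53, 15.8, 409 and 15.7. Of these, Fcgr1 was not above background on any array. B cell genes summed to 16.1 in P3 and between 6.93 and 8.07 elsewhere, with Pax5 not above background on any array. Erythroid genes summed to 12.3 in P3 and at most 0.935 elsewhere, from globin genes, with Alas2, Epb42 and Slc4a1 not above background on any array. Natural killer cell genes, several of which T cells share, summed to 4.74, 32.3, 208 and 192, with Gzma as the brightest in P3 and P4 and Ncr1 not above background on any array. In P4 minus P3, 5 of 7 of them were at least 2-fold lower (median -1.29). Granulocyte genes summed to 150 in P3 and 198 or 199 elsewhere, carried by the Csf3r probe, with S100a8 and S100a9 higher in P3 than in P1 by 2.55 and 2.81 and Ngp and Ltf not above background on any array. Plasmacytoid dendritic cell genes summed to between 99.0 and 121, of which the Siglech probe gave a large share, but 4 of 7 were at least 2-fold higher and 2 lower in P3 minus P1 (median 3.65). The part of other cells in the member values of P3 was not tested. In bulk RNA a gene carried by fewer cells and a gene with less RNA per cell cannot be told apart.

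A gene for each of 13 steps, from glucose uptake to lactate export, was followed first. The family member with the brightest measured probe was taken, which is a rule of choice and does not show which isoform is the most abundant: Slc2a1, Hk1, Gpi1, Pfkp, Aldoa, Tpi1, Gapdh, Pgk1, Pgam1, Eno1, Pkm, Ldha and Slc16a1. In none of the 6 pairs of subsets did any of these 13 differ by 2-fold, while 25.3% of 14359 measured genes did in some pair. The 13 were well above background on all 4 arrays, and of the 11834 genes of that kind 18.3% did. The largest difference among the 13 was -0.90 on the log2 scale, for Slc2a1 in P4 minus P2. The 13 were picked for bright probes, where spot noise is smallest, so brightness and place in the pathway cannot be told apart here. All 9 members that were at least 2-fold apart in some pair lay outside this set, as isoforms with a dimmer probe or as regulators. They were Slc2a6, Hk2, Hk3, Aldoc, Pfkfb3, Eno2, Ldhb, Slc16a3 and Pdk1. Those 9 are 27.3% of the 33 measured members, beside 25.3% of 14359 measured genes. Without the P3 array the number fell to 4 of 33 (12.1%), Slc2a6, Hk2, Slc16a3 and Ldhb, beside 12.6% of 13417 genes.

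**Figure D1:**
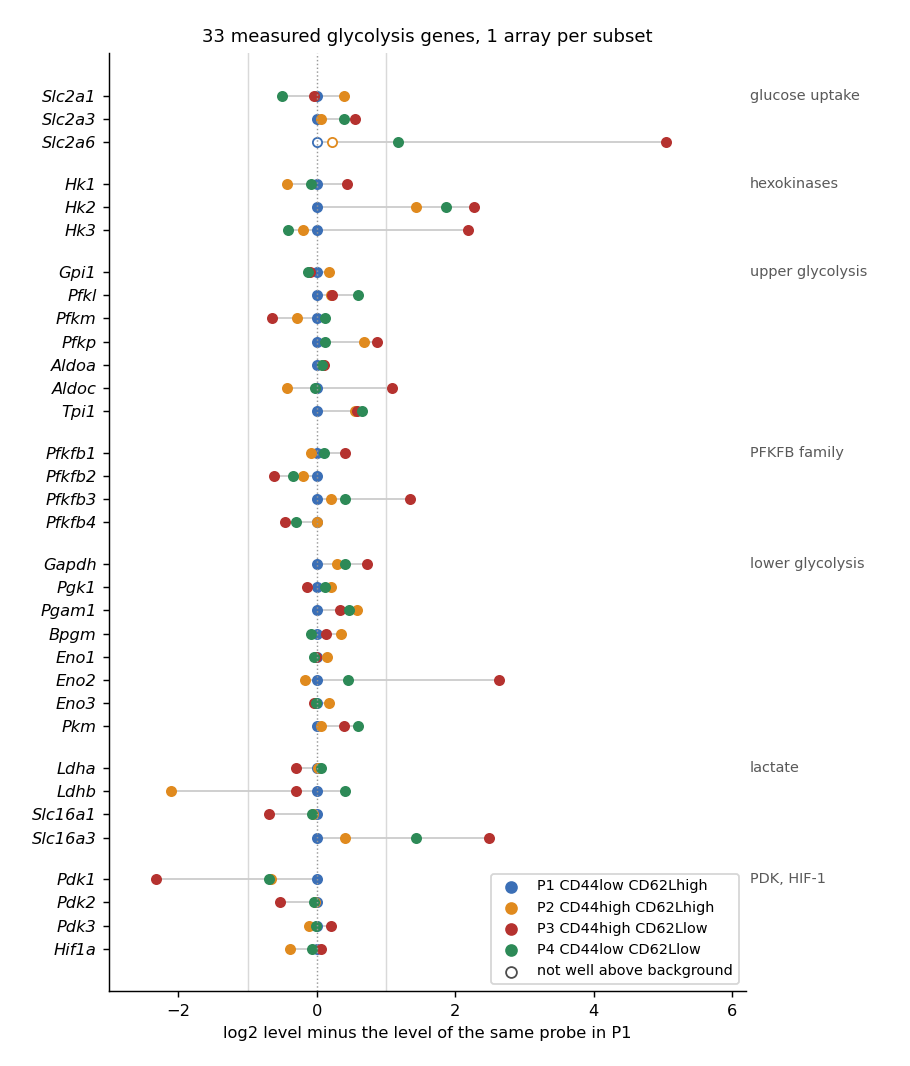
Log2 level of each of the 33 measured members on the 4 arrays, relative to its own level in P1 (horizontal axis, log2 units), grouped by role from top to bottom. Filled points are well above background, open points are not and stand at the lowest level well above background on their array or at their own level if higher; grey vertical lines mark 2-fold. Most rows stay within the grey lines, Slc2a6, Hk2, Hk3, Eno2 and Slc16a3 reach far to the right in P3, Pdk1 far to the left in P3, and Ldhb far to the left in P2.

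Glucose enters T cells through facilitative transporters. Slc2a1, which encodes GLUT1, the transporter that T cells raise on activation, stood at 3.59, 3.98, 3.54 and 3.08 in P1 to P4. Its highest level was thus in P2 and its lowest in P4, with P1 and P3 apart by less than spot noise. Slc2a3, which encodes the high-affinity transporter GLUT3, stood at 2.41, 2.46, 2.96 and 2.80. Both CD62Llow subsets had higher Slc2a3 values than both CD62Lhigh subsets, by 0.34 to 0.55, short of 2-fold. A dimmer second Slc2a3 probe, with no value in P1, gave 0.18 for P3 minus P2 and 0.21 for P4 minus P2. Both lie within the spot noise of 0.37 at its level.

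Slc2a6 encodes GLUT6, a transporter of intracellular membranes. It was well above background in P3 (level 0.90) and P4 (-2.97) and not in P1 (-5.20) or P2 (-3.92). The P3 signal was at least 32.9-fold above P1 and at least 28.3-fold above P2, and 14.6-fold above P4 (-3.87 for P4 minus P3). The P4 signal was at least 2.25-fold above P1, and the bound against P2 was 1.94-fold. A dimmer Slc2a6 probe was well above background in P3 only, at a level of -3.18. With normexp, P3 minus P1 was 3.24 on the log2 scale in place of 5.04, and with the mean over both probes 3.00. P4 minus P3 was -2.61 and -2.49 in those settings, and P3 minus P2 2.90 and 2.85 in place of 4.82. The P4 bound against P1 fell to 0.63 on the log2 scale with the normexp background correction, a model that compresses low signals, so that it no longer reached 2-fold.

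The 3 hexokinases, which trap glucose in the cell by phosphorylation, had 3 different profiles. Hk1, the isoform expressed in most tissues, stood at 4.45, 4.02, 4.89 and 4.37, a spread short of 2-fold. Hk2 is the isoform induced by growth signals and HIF-1, and it binds mitochondria as Hk1 does. Its levels were -2.63, -1.19, -0.36 and -0.77. Every other subset thus lay at least 2-fold above P1: P2 by 2.71-fold (1.44 log2), P3 by 4.84-fold (2.27) and P4 by 3.64-fold (1.86). P2, P3 and P4 differed from each other by 0.41 to 0.84, less than 2-fold. Hk2 has 1 probe here, and with normexp the differences from P1 fell to 0.89 for P2, 1.41 for P3 and 1.21 for P4.

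Hk3, the isoform known from myeloid blood cells, stood at -1.04, -1.25, 1.13 and -1.46 in P1 to P4. It was high in P3 alone, by 4.52-fold over P1, 5.22-fold over P2 and 6.04-fold over P4, while the other 3 levels lay within 0.42 of each other. A second Hk3 probe gave 2.21 for P3 minus P1 on the log2 scale, beside 2.18 from the first. P3 is also the array on which the summed dendritic cell, macrophage and monocyte level was 409 against at most 15.8 elsewhere.

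Between glucose phosphate and the triose phosphates, Aldoc alone was 2-fold apart in any pair. Gpi1, which converts glucose phosphate to fructose phosphate, stood at 6.81, 6.98, 6.72 and 6.69. Aldoa, the aldolase of muscle and most other cells, was the flattest member of all, at 7.05, 7.14, 7.15 and 7.13. Phosphofructokinase, the main control point, is built from 3 kinds of subunit. Pfkl, the liver type, stood at 0.42, 0.63, 0.64 and 1.02, highest in P4, and Pfkm, the muscle type, at 1.01, 0.72, 0.35 and 1.13, lowest in P3. Pfkp, the platelet type, stood at 3.56, 4.25, 4.43 and 3.68, so that both CD44high subsets lay above both CD44low subsets. The Pfkp differences were 0.69 for P2 minus P1 and 0.87 for P3 minus P1, and its second probe gave 0.71 and 0.85. For Pfkp, P4 lay near P1, with a difference of 0.12 (0.33 by the second probe).

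Tpi1, which interconverts the triose phosphates, stood at 2.58, 3.13, 3.15 and 3.23. P1 was thus the low array, and its 3 probes gave 0.54 to 0.73 for P4 minus P1. Aldoc, the aldolase known from brain, stood at -1.02, -1.44, 0.07 and -1.05, with 10 spots on each array. Those 10 spots had an SD of 0.148, 0.0947, 0.107 and 0.114, and the highest P1 spot, at -0.75, lay below the lowest P3 spot, at -0.092. Aldoc was 2.13-fold higher in P3 than in P1, 2.86-fold higher than in P2 and 2.17-fold higher than in P4. Its second probe, with 10 spots of its own, gave 1.62 on the log2 scale for P3 minus P1 beside 1.09 from the first. With normexp the P3 minus P1 and P4 minus P3 differences of Aldoc were 0.88 and -0.86, under 2-fold.

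The 4 PFKFB genes set the activator of phosphofructokinase. Pfkfb3, whose enzyme strongly favours making the activator, stood at 2.26, 2.45, 3.60 and 2.67. It was 2.54-fold higher in P3 than in P1 and 2.21-fold higher than in P2, and 1.91-fold higher than in P4. A dimmer second probe gave 0.74 for P3 minus P1 beside 1.34 from the first, and 1.11 for P3 minus P2 beside 1.15. Pfkfb1 stood at -0.17, -0.26, 0.22 and -0.067, also highest in P3. Pfkfb2 stood at 0.92, 0.72, 0.30 and 0.57, and Pfkfb4 at -0.18, -0.18, -0.64 and -0.48, both lowest in P3 and short of 2-fold.

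Lower glycolysis yields ATP and pyruvate. Gapdh, often used as a reference gene, stood at 6.24, 6.52, 6.97 and 6.64. Its 6 probes ranged from 0.41 to 0.73 for P3 minus P1 and from 0.23 to 0.50 for P4 minus P1, so that P1 was the low array by each of them. Pgk1, the first step that yields ATP, stood at 6.65, 6.86, 6.503 and 6.77. Pgam1, which moves the phosphate group before the enolase step, stood at 4.37, 4.95, 4.70 and 4.84, again lowest in P1, with spot SDs of 0.0460 to 0.0635 over 10 spots. Bpgm, which makes the bisphosphoglycerate that red cells use to regulate haemoglobin, stood at 0.87, 1.21, 1.00 and 0.77. Pkm, the pyruvate kinase of T cells, stood at 4.89, 4.96, 5.27 and 5.49, highest in P4. The P4 minus P1 difference of Pkm was 0.60, and 0.42 by its second probe, while P3 minus P2 was 0.32 and 0.024. Which splice forms of Pkm the probes read was not examined.

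Among the enolases, Eno1, the form found in most cells, stood at 5.92, 6.06, 5.897 and 5.88, and Eno3, the muscle form, at 2.54, 2.70, 2.50 and 2.53. A dimmer second Eno1 probe gave -0.47 for P3 minus P1 and -0.76 for P3 minus P2, beside -0.020 and -0.17 from the first. Eno2, the form known from neurons and induced by HIF-1, stood at -3.18, -3.34, -0.54 and -2.73. It was high in P3 alone, 6.21-fold above P1, 6.97-fold above P2 and 4.56-fold above P4. Eno2 rests on 1 probe. With normexp its P3 minus P1 difference was 1.38 in place of 2.63, P3 minus P2 1.47 and P4 minus P3 -1.25, all still past 2-fold.

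Lactate dehydrogenase is a tetramer of A and B subunits. Ldha, whose subunit favours lactate formation, stood at 7.23, 7.24, 6.93 and 7.28. P3 was thus its low array, by at most 0.35. Ldhb, whose subunit favours the reverse reaction, stood at 2.23, 0.13, 1.93 and 2.64. Here P2 was low: it lay 4.30-fold below P1, 3.48-fold below P3 and 5.72-fold below P4. A second Ldhb probe gave -2.01 for P2 minus P1 beside -2.10 from the first, and 2.45 for P4 minus P2 beside 2.52. Ldhb was the only member at least 2-fold lower in P2 than in P1, and its P3 and P4 levels lay within 0.41 of P1. No array had a spot of either Ldhb probe in a locally bright area, and P1 to P4 alike had both probes well above background.

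Lactate leaves the cell through monocarboxylate transporters. Slc16a1, which encodes MCT1, a transporter that works in both directions, stood at 2.40, 2.34, 1.70 and 2.33, lowest in P3. Slc16a3, which encodes MCT4, the exporter of highly glycolytic cells, stood at -2.88, -2.47, -0.40 and -1.45. Both CD62Llow subsets lay above both CD62Lhigh subsets. P3 was 5.58-fold above P1 and 4.20-fold above P2, and P4 was 2.69-fold above P1 and 2.02-fold above P2. P3 was 2.07-fold above P4. Slc16a3 rests on 1 probe, and with normexp the 3 differences that involve P4 fell below 2-fold, to 0.74 against P1, 0.54 against P2 and -0.76 for P4 minus P3. In that setting P3 lay 1.51 above P1 and 1.30 above P2.

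Pdk1, the pyruvate dehydrogenase kinase that HIF-1 induces, moved opposite to Hk2 and Slc16a3. It stood at 5.27, 4.60, 2.95 and 4.59. P3 lay 4.99-fold below P1, 3.14-fold below P2 and 3.10-fold below P4, while P2 and P4 were level with each other and 1.59-fold and 1.61-fold below P1. Pdk1 has 4 probes, which gave -2.32, -1.98, -2.23 and -0.91 for P3 minus P1, all of the same sign. The dimmest of the 4 was short of 2-fold in the other pairs with P3. It gave -0.50 for P3 minus P2, and 0.27 for P4 minus P3, within the spot noise of 0.37 at its level. Pdk2 stood at -0.63, -0.65, -1.16 and -0.67, also lowest in P3, and Pdk3 at -0.45, -0.57, -0.24 and -0.46. Hif1a stood at 3.40, 3.01, 3.45 and 3.32, so that its transcript differed by at most 0.45 between subsets, although the factor is regulated mainly through protein stability.

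**Figure D2:**
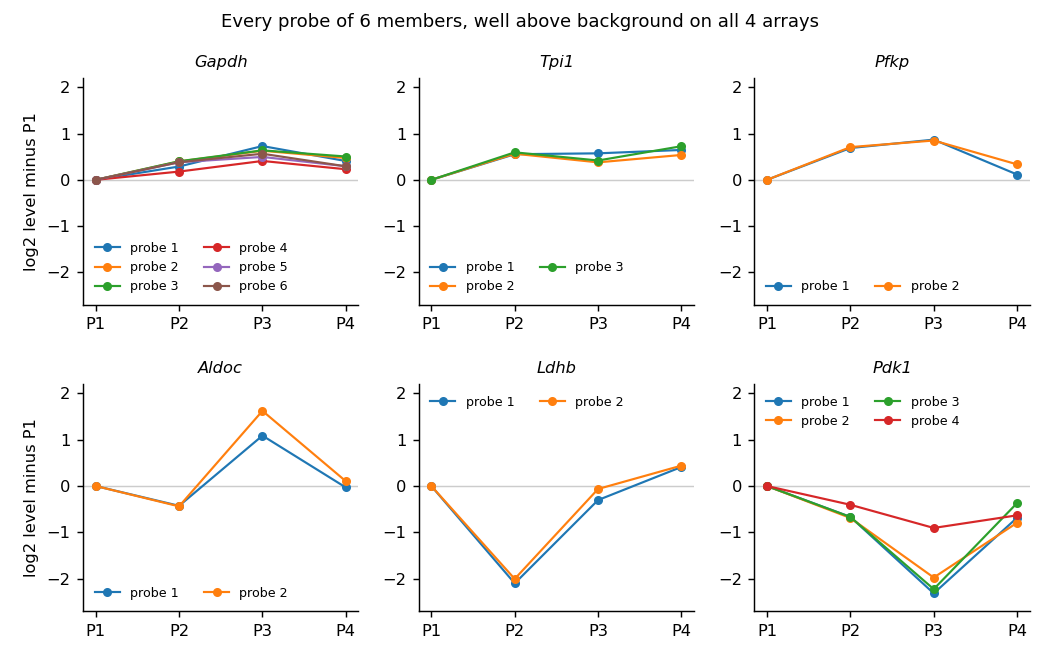
Log2 level relative to P1 (vertical axis) on the 4 arrays (horizontal axis) for every probe of 6 members with several probes; each line is 1 probe, numbered from the brightest. Lines connect arrays only to show which points belong to the same probe. The 6 probes of Gapdh lie 0.41 to 0.73 above P1 in P3, both of Ldhb lie at -2.10 and -2.01 in P2, and those of Pdk1 lie between -2.32 and -0.91 in P3.

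Counts per pair place these genes against all measured genes. In P2 minus P1, 1 of 32 measured members (3.12%) was at least 2-fold higher, Hk2, and 1 lower, Ldhb, beside 4.76% and 2.52% of 12954 genes. In P4 minus P1, 3 of 33 were higher (9.09%), Slc2a6, Hk2 and Slc16a3, and 0 lower, beside 5.43% and 1.77% of 13160 genes. In P4 minus P2, 2 of 33 were higher (6.06%), Ldhb and Slc16a3, and 0 lower, beside 4.78% and 3.45% of 13125 genes. For these 3 pairs the member counts are 0 to 3 genes, so that 1 gene decides how they stand to the background.

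Pairs with P3 held more. In P3 minus P1, 7 of 33 members were at least 2-fold higher (21.2%), Slc2a6, Hk2, Hk3, Aldoc, Pfkfb3, Eno2 and Slc16a3, beside 12.5% of 14089 genes, and 1 lower (3.03%), Pdk1, beside 6.98%. In P3 minus P2, 7 of 33 were higher, with Ldhb in place of Hk2, beside 10.6% of 14012 genes, and Pdk1 was lower, beside 5.61%. In P4 minus P3, Pdk1 was higher, beside 3.98% of 13990 genes, and 5 of 33 were lower (15.2%), Slc2a6, Hk3, Aldoc, Eno2 and Slc16a3, beside 9.07%. These 3 pairs share the P3 array, on which the dendritic cell, macrophage and monocyte genes were 15 of 17 higher against P1 (median 6.35), and cell cycle genes 16 of 22 higher (median 2.35). In P4 minus P1 the same lists had 8 of 13 higher (median 1.24) and 3 of 20 higher (median 0.61). The part of either in the member counts was not tested.

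**Figure D3:**
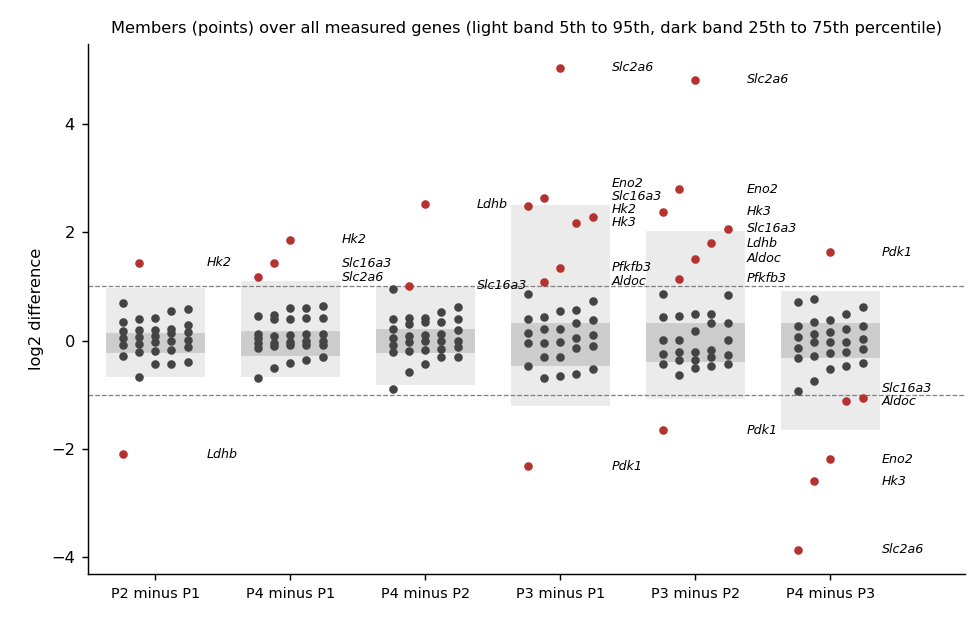
Log2 difference (vertical axis) of each measured member in the 6 pairs of subsets (horizontal axis), with members at least 2-fold apart in red and named, over bands of all measured genes. Dashed lines mark 2-fold. In P3 minus P1 the bulk of the members lies within the light band, which runs from -1.18 to 2.49, with Slc2a6 and Eno2 above it and Pdk1 below it; in P4 minus P1 only Hk2, Slc16a3 and Slc2a6 pass 2-fold.

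The members taken as a whole shifted by little. Their median difference was 0.060 in P2 minus P1, 0.21 in P3 minus P1, 0.077 in P4 minus P1, 0.019 in P3 minus P2, 0.092 in P4 minus P2 and -0.030 in P4 minus P3. Over all measured genes the medians were -0.058, -0.10, -0.065, -0.043, -0.0017 and 0.022. The scaling moved the 3 medians with P3: quantile normalization gave 0.40, 0.28 and -0.18 for P3 minus P1, P3 minus P2 and P4 minus P3. Over all measured genes quantile normalization gave -0.037, 0.0068 and 0.0022 in the same pairs. In P4 minus P1, 25 of 33 members lay within 0.5 of 0, beside 80.5% of all genes, and in P3 minus P1 17 of 33 did, beside 58.0%.

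Each member was also ranked over its own 4 levels. Of the 32 members well above background on every array, 14 had their highest level in P3 (43.8%, beside 29.1% of 11834 genes), 7 in P2, 6 in P4 and 5 in P1. P1 was the highest array for 15.6% of members and 36.7% of all genes. The lowest level fell in P1 for 11 members (34.4%, beside 16.6% of all genes), among them Hk2, Tpi1, Gapdh, Pgam1, Pkm and Slc16a3. P3 was lowest for 9 members (28.1%, beside 43.0% of all genes), such as Pdk1, Pdk2, Pfkfb2, Pfkm and Slc16a1. The range over the 4 arrays had a median of 0.61 for members and 0.49 for all genes, and many of these orders rest on differences within spot noise.

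P4 shares low CD62L with P3 and low CD44 with P1, and the 8 members with a 2-fold difference between P1 and P3 show where it stood between them. P4 lay nearer to P1 for 6 of the 8, as for 64.7% of the 2743 genes that far apart over the whole array. Its place on the way from P1 to P3, on the log2 scale, was 16.9% for Eno2, 23.3% for Slc2a6, 29.5% for Pdk1 and 30.6% for Pfkfb3, and at or beyond the P1 end for Hk3 (-19.2%) and Aldoc (-2.85%). The exceptions were Slc16a3 at 57.5% and Hk2 at 81.9%. The dimmer second Pfkfb3 probe gave -0.25 for P4 minus P1, beside 0.41 from the first, which puts P4 beyond the P1 end. P2 lay nearer to P1 for 7 of the 8, all but Hk2 at 63.2%, and for 76.0% of those genes. With 8 members these shares do not set the members apart. The 8 genes were picked by the P1 to P3 difference, so only the places of P2 and P4 are read here, and for Slc2a6 the P1 and P2 ends are upper bounds.

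The step from CD62Lhigh to CD62Llow can be read within CD44low cells (P4 minus P1) and within CD44high cells (P3 minus P2). For Slc16a3 it was 1.43 in CD44low and 2.07 in CD44high cells, and for Slc2a3 0.39 and 0.50, so that both steps had the same sign. The dimmer Slc2a3 probe gave 0.18 in CD44high cells, within spot noise, and had no value in P1. For Hk3 the steps were -0.42 and 2.38, for Eno2 0.45 and 2.80, for Aldoc -0.031 and 1.52, and for Ldhb 0.41 and 1.80. Hk2 showed the larger step in CD44low cells, 1.86 against 0.84. Pdk1 stepped by -0.68 and -1.65. No test of these differences between steps was possible.

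The steps that branch off glycolysis or follow it were compared through lists of other genes. Of all measured genes, 12.5% were at least 2-fold higher and 6.98% lower in P3 minus P1. In P4 minus P1 these shares were 5.43% and 1.77%, and 25.3% of genes were 2-fold apart in some pair. Among genes well above background on all 4 arrays, 18.3% were 2-fold apart in some pair. The lists are short, so 1 or 2 genes decide how a count stands to these shares. Among 16 further genes of glucose and lactate transport, 0 of the 7 measured in P3 minus P1 and 0 of the 6 measured in P4 minus P1 were 2-fold apart. Txnip, which limits glucose uptake and is itself induced by glucose, stood at -0.98 in P3 minus P1 and -0.74 in P4 minus P1, with levels of 7.30, 7.16, 6.32 and 6.56. Emb, which encodes embigin, a partner of monocarboxylate transporters, stood at 4.28, 4.47, 3.50 and 3.88, also lower in both CD62Llow subsets. Arrdc4, a relative of Txnip, gave -0.53 and -0.77 in the same pairs.

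Among 18 further isoforms and enzymes of glycolysis, 1 of 9 measured genes was higher and 1 lower in P3 minus P1. Pgam2, the muscle phosphoglycerate mutase, was well above background in P3 only, with a bound of 2.09 against P1. Ldhd, which oxidises D-lactate, stood at -1.79 in P1, -4.69 in P3 and -1.93 in P4 and was not well above background in P2. Its P3 minus P1 difference was -2.90, with the P3 level close to the dimmest that was well above background on that array. Of 7 gluconeogenesis genes, 3 were measured, and Pck2, the mitochondrial enzyme that makes phosphoenolpyruvate, lay 1.02 and 1.03 above P2 in P3 and P4.

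The fate of pyruvate in mitochondria was read from separate lists. Of 10 measured genes of pyruvate entry, such as the carrier genes Mpc1 and Mpc2 and the dehydrogenase subunit gene Pdha1, 0 were 2-fold apart in any of the 6 pairs, and the median was -0.21 in P3 minus P1 and -0.11 in P4 minus P1. Pdk4 was not well above background on any array. All 16 tricarboxylic acid cycle genes were measured and 0 were 2-fold apart in any pair, with medians of -0.17 and -0.11. In the pentose phosphate pathway 1 of 9 genes passed 2-fold, Prps2, which makes the ribose donor of nucleotide synthesis, at -1.12 in P3 minus P1.

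Among genes that draw serine from the pathway, P4 was the high array for both hydroxymethyltransferases. Shmt1, the cytosolic serine hydroxymethyltransferase, which feeds folate metabolism from serine, stood at -1.80, -1.55, -1.28 and 0.021. Its differences were 1.83 for P4 minus P1, 1.57 for P4 minus P2 and 1.30 for P4 minus P3. Shmt2, its mitochondrial counterpart, was 1.06 higher in P4 than in P3 and 0.42 higher than in P1. Of the 5 genes of serine synthesis and use, the median was 0.42 in P4 minus P1 and -0.30 in P3 minus P1.

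Shuttles that carry the reducing power of glycolysis into mitochondria had 2 of 8 genes past 2-fold in P3 minus P1, both upward. These were Gpd2, the mitochondrial glycerol phosphate dehydrogenase, at 1.25, and Slc25a13, an aspartate-glutamate carrier, at 1.52, and both lay between P1 and P3 in P4, at 0.69 and 0.93. Of 22 measured hypoxia response genes outside glycolysis, 1 was higher and 1 lower in P3 minus P1, with a median of -0.17. Epas1, which encodes the HIF-2 subunit, stood at -1.49, -1.66, 1.44 and 0.076, and Vegfa, the angiogenic factor that HIF-1 induces, at -2.07, -2.23, -3.49 and -2.50. Of 21 MYC and mTORC1 regulators, 0 were higher and only Myc lower in P3 minus P1, with Myc levels of 4.07, 3.996, 2.65 and 3.81. In P4 minus P1 none of the 21 reached 2-fold.

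**Figure D4:**
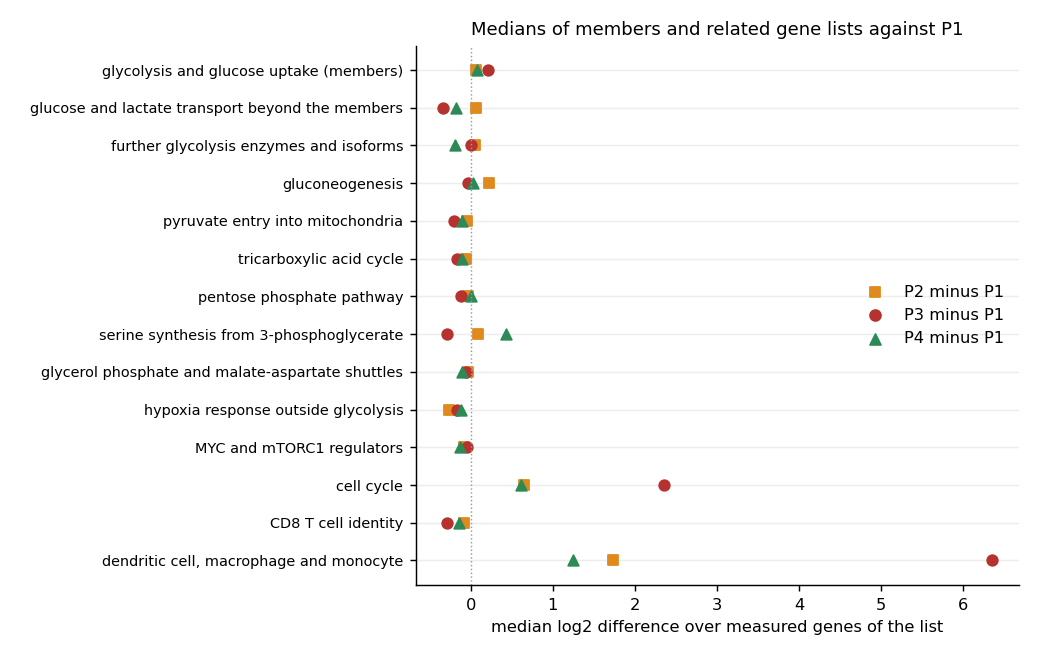
Median log2 difference over the measured genes of a list (horizontal axis) for P2, P3 and P4 against P1, which the 3 comparisons share, for the members, 11 related lists and 2 marker lists (rows). The medians of the members and of the other metabolic lists lie between -0.33 and 0.42, while the cell cycle list reaches 2.35 and the dendritic cell, macrophage and monocyte list 6.35 in P3.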

How the data were processed

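Total RNA of 4 sorted CD8 subsets was copied to cDNA from random primers and read as Cy3 signal on Agilent arrays, per the labels' protocols. The authors took spot intensity from the scans in Agilent Feature Extraction 11.0.1.1, per the submitters' processing notes; the processed signal is background-subtracted and not normalized between arrays. A table deposited by the authors gives 26188 probes on the log2 scale, each column with median 8.845, read from the values as quantile normalised and not centred; 32 members are listed in it. The tool behind it is not given here.

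From each array, control and outlier spots (122 to 152) were left out, and 0 spots were saturated. Log2 processed signals were averaged over repeated spots, and the array's 75th percentile over probes (333, 332, 550 and 315 signal units in P1 to P4) was subtracted. Probes well above background numbered 27827 to 30811. RefSeq accessions named 32994 probes (58.3%) through a gene table of GRCm38.p6, and the probe with the highest mean stood for its gene. A pair used the genes that either of its arrays showed well above background. Dimmer values were lifted to the array's lowest well-above-background level (-4.82 to -4.05), which makes the difference a bound ("at least"). Genes were counted at 2-fold by size alone. Medians and counts are given beside those over all measured genes.

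The members and lists were chosen with earlier results of these data known. The naming rule gave all members, those at least 2-fold apart and the best measured isoform of each step in full, and up to 4 genes of each other list. A planned search for genes with a profile like the members' median was not reported, since that median spans only 0.32 over the arrays. Normexp ran on median signals with an offset of 50, since no mean signal column was used here; this choice, the percentile over spots and the count without P3 were made after seeing the data. Simulated arrays with known fold changes were used to check the counting. Python 3.11.15, numpy 2.4.6, pandas 2.3.3, scipy 1.17.1, matplotlib 3.10.9, R 4.3.3 and limma 3.58.1 were used.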

Additional observations from a re-analysis of the deposited data

How the results depend on the processing

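Of 29 member differences of at least 2-fold, 22 stayed so in the same direction under every alternative that gave a value, and 0 reversed; the other 7 fell below 2-fold under normexp, which shrinks differences between dim signals by its offset of 50. With normexp the counts were 1 in place of 2 for P2 minus P1, 1 in place of 3 for P4 minus P1 and 1 in place of 2 for P4 minus P2. With no filter and no floor, P2 minus P1 gave 4. At 4-fold the counts were 1 for P2 minus P1, 0 for P4 minus P1, 4 for P3 minus P2, 1 for P4 minus P2 and 3 for P4 minus P3. At 1.5-fold they were 4 for P2 minus P1, 13 for P3 minus P1, 7 for P4 minus P1, 5 for P4 minus P2 and 11 for P4 minus P3. Members at least 2-fold apart in any pair numbered 9, against 19 at 1.5-fold and 4 without the P3 array. The median over members for P3 minus P1 was 0.40 under quantile normalization and 0.39 in the authors' deposited values. For P3 minus P2 it was 0.28 and 0.29, and 0.25 without locally bright areas, and for P4 minus P3 -0.18 and -0.17. The other 69 counts stayed within 1.5 times and 53 medians moved by less than 1 SD of spot noise in a difference. No paired analysis was possible because each subset has 1 array, and leaving out a replicate was not possible for the same reason. Dim probes (Slc2a6, Eno2, Slc16a3, Hk2) limit what these arrays show, since spot noise there is widest.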

Other observations

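Some members had a spot in a locally bright area, where many neighbouring spots were at least 2-fold above the same spots on the other arrays. For the probes that represent their gene these were Pdk1, Pfkfb4 and 1 of 10 spots of Pgam1 on the P2 array, Eno3 on P3, 1 of 10 spots of Aldoc on P4 and Hif1a on P1. For Pdk1, whose brightest probe lay in such an area on P2, the other 3 probes gave -0.69, -0.67 and -0.41 for P2 minus P1, beside -0.67 from that probe. For P3 minus P2 the same 3 probes gave -1.29, -1.56 and -0.50, beside -1.65.

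In pairs where a member with several measured probes was 2-fold apart, 0 had probes of opposite sign. In P3 minus P1 this was 0 of 5, beside 76 of 738 such genes over the whole array. Pfkfb3 had probes of opposite sign in P2 minus P1 and P4 minus P1, where it was short of 2-fold.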
